A study of Mus musculus with 5 samples.

Results

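Imprinted genes are transcribed mainly or only from the copy inherited from one parent. Methylation marks that are laid down in the egg or the sperm, and kept through the wave of demethylation after fertilization by factors such as ZFP57, TRIM28 and DNMT1, set which copy is active. Many of these genes lie in clusters that share one control region, and several of them set the growth of the embryo and its placenta, with paternally expressed Igf2 as the best known growth promoter and maternally expressed Igf2r, Grb10, Cdkn1c and Phlda2 as restraints. The genes described here were chosen by name as known mouse imprinted genes, and 45 such genes were found among the 49671 genes in the count table. Of these, 21 are known as maternally and 23 as paternally expressed, Gnas makes transcripts of both kinds, and together they lie at 20 clusters or single loci. The counts were not separated by allele, so every value below is the sum over both parental copies. Whether each gene was imprinted in these embryos was not measured, and maternal or paternal below is a label only.

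RNA was measured by SmartSeq2, which amplifies full-length cDNA from polyadenylated RNA, in 5 single mouse embryos of mixed strain background at E6.75. The 2 SO+ embryos were Sox2Cre-/-; Oct4 fl/+, and the 3 SO− embryos were Sox2Cre+/-; Oct4 fl/-, so both genotypes carried a floxed Oct4 allele and only SO− embryos carried the Cre and a null allele. Cre driven by Sox2 recombines mostly in the epiblast, so the visceral endoderm (VE), which was sequenced together with the epiblast after removal of the extraembryonic ectoderm (ExE), should largely have kept its floxed allele. The comparison asks which transcripts differ when Oct4 is removed from the epiblast at this stage.

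Libraries held 27538119 and 27047148 counts in the SO+ embryos, against 4134617, 1117566 and 4191498 counts in SO− embryos 1, 2 and 3, so that 3 counts equal 0.109 and 0.111 CPM (counts per 1e6 counts of the library) in SO+ embryos, against 0.726, 2.68 and 0.716 CPM in SO− embryos. Each library carried a pair of indices. The second index was the same in both SO+ libraries and another in all SO− libraries, while the first was in part shared between genotypes. Depth and the second index cannot be told apart from genotype. Pou5f1, which encodes Oct4, was at 920 and 435 CPM in SO+ embryos and at 27.8, 12.5 and 43.7 CPM in SO− embryos. The summed level of 8 epiblast markers was 6730 and 5400 CPM in SO+ embryos, against 2890, 2480 and 3580 CPM in SO− embryos, and that of 12 VE markers was 3020 and 3420 CPM against 4760, 4670 and 2960 CPM, so both labelled tissues were present in every library. Of 14 markers of maternal decidua and blood, 9 had no count in any embryo, among them Prl8a2, Hbb-bs and Ptprc. In such bulk samples, fewer cells of a type and less RNA per cell cannot be told apart.

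Of the 45 imprinted genes, 38 had enough counts to be tested. In SO− embryos 5 of them rose (Igf2, Peg3, Mest, Asb4 and Cdkn1c) and 2 fell (Snrpn and Magel2) at an adjusted p under 0.05 by edgeR's quasi-likelihood test with Benjamini-Hochberg adjustment over all 12067 genes tested. That is 18.4% of the tested imprinted genes, where 2.35% of all genes passed, 1.42% as higher and 0.928% as lower in SO− embryos. An unadjusted p under 0.05 was reached by 15 imprinted genes (39.5%) against 13.7% of all genes. The CPM of the genotypes did not overlap for 19 of the 38 (50%), with 14 higher and 5 lower in all SO− embryos, against 29.5% of all genes, of which 13.9% were higher and 15.6% lower. These shares describe a list that was chosen with results of these embryos known, and no test was made over the list.

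Genes expressed from either parental copy were among those that rose. The median log2 fold change, SO− over SO+, was 0.20 for the 18 maternally expressed genes tested and 0.20 for the 19 paternally expressed genes, against -0.002 for all genes. A log2 fold change above 0 was seen in 12 of the 18 and in 13 of the 19, against 49.7% of all genes tested. Of the genes past the test, Asb4 and Cdkn1c, both higher, are maternally expressed, whereas Igf2, Peg3 and Mest (higher) and Snrpn and Magel2 (lower) are paternally expressed.

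**Figure D1:**
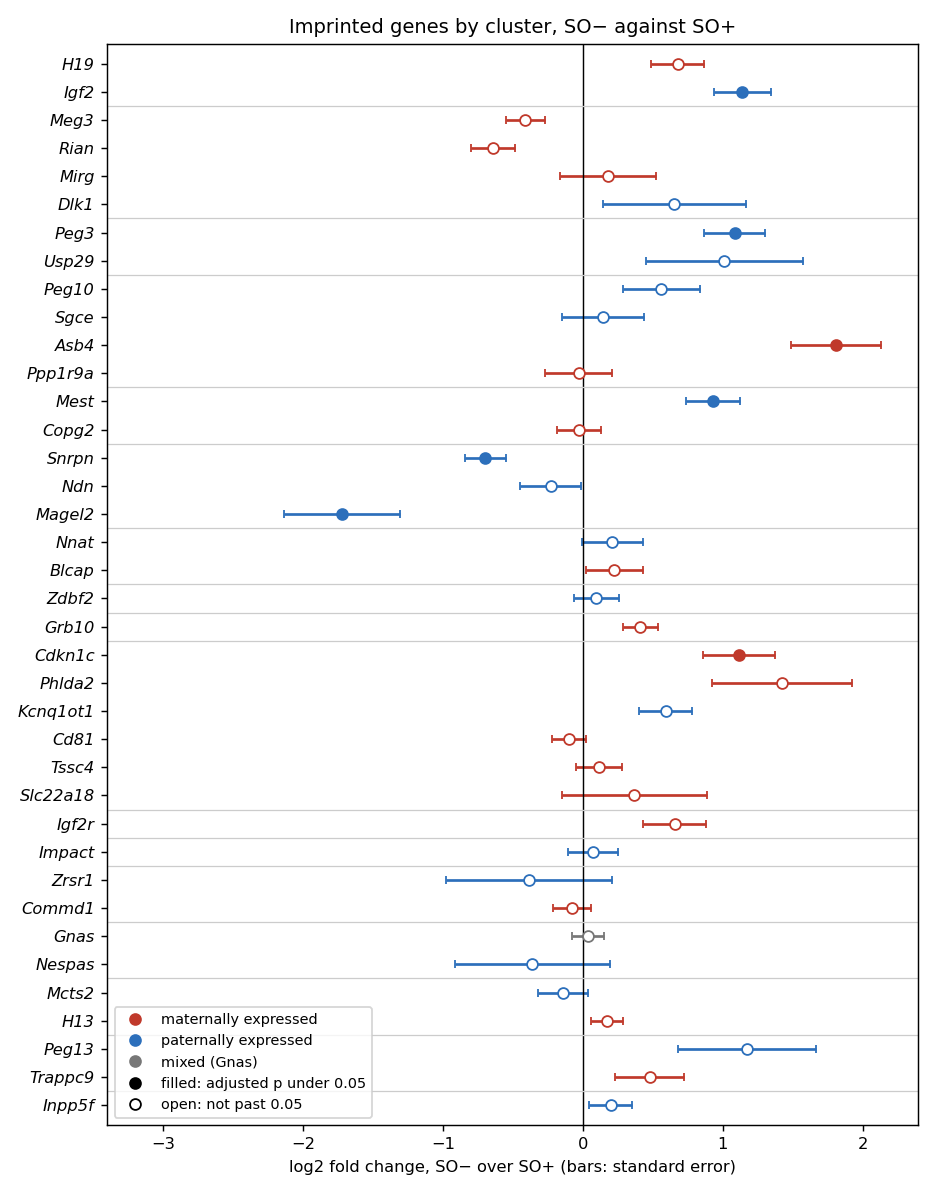
Log2 fold change (x axis, SO− over SO+) of the 38 tested imprinted genes, grouped by cluster between grey lines, with bars for the standard error and filled points for an adjusted p under 0.05. The 7 filled points run from Magel2 at -1.72 to Asb4 at 1.81, and red (maternal) and blue (paternal) points lie on both sides of 0.

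The H19-Igf2 cluster spans 91.3 kb of chromosome 7 (GRCm38, chr7:142575529-142666816). Igf2, the fetal growth factor expressed from the paternal copy, was at 37.8 and 41.3 CPM in SO+ embryos and at 101, 103 and 61.3 CPM in SO− embryos 1, 2 and 3. All SO− embryos lay above both SO+ embryos, and Igf2 rose with a log2 fold change of 1.14 (SE 0.21, adjusted p = 0.0103, edgeR). H19, the noncoding RNA made from the maternal copy of the same cluster, was at 314 and 351 CPM in SO+ embryos and at 604, 643 and 357 CPM in SO− embryos. SO− embryo 3 was thus just above the SO+ level while embryos 1 and 2 were well above it, and the log2 fold change of 0.68 (SE 0.19) had an adjusted p of 0.0915 by edgeR and 0.0104 by DESeq2. The counts of Igf2 were 10.7% and 10.5% of the counts of Igf2 and H19 together in SO+ embryos, against 14.3%, 13.8% and 14.7% in SO− embryos, a share that differed little among SO− embryos although their levels differed. The annotation used here for exon lengths places a further gene model, Gm49394, over 62.8% of the exonic bases of Igf2. Gm49394 is not among the genes in the count table, so it has no counts of its own here.

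The other members of the insulin-like growth factor system were looked at in a list of 12 genes beside the 45, of which 10 were tested and 3 rose, where 1.42% of all genes tested were called higher. Igfbp3, a secreted binding protein that limits access of the growth factor to its receptor, was at 32.3 and 26.8 CPM in SO+ embryos and at 142, 248 and 130 CPM in SO− embryos (log2 fold change 2.51, adjusted p = 0.000153, edgeR). Igfbp2 rose by 0.61 (adjusted p = 0.00669) and Igfbp5 by 3.33 (adjusted p = 0.0129, edgeR). The signalling receptor Igf1r was at 42.9 and 31.5 CPM in SO+ embryos and at 31.7, 28.6 and 34.6 CPM in SO− embryos (log2 fold change -0.21, adjusted p = 0.743, edgeR), and its other ligand Igf1 had no count in any embryo. Igf2bp1, which binds Igf2 mRNA, was at 354 and 386 CPM against 419, 463 and 457 CPM (adjusted p = 0.225, edgeR). Igf2bp3, of the same family, was at 121 and 126 CPM in SO+ embryos and at 177, 199.5 and 157 CPM in SO− embryos. Its log2 fold change of 0.52 was just short of the threshold (adjusted p = 0.0515, edgeR). Thus the genes past the test in this list were those of the growth factor binding proteins Igfbp2, Igfbp3 and Igfbp5.

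Igf2r, the maternally expressed receptor that takes up the growth factor for degradation, was at 22.5 and 17.9 CPM in SO+ embryos and at 31.4, 39.4 and 27.0 CPM in SO− embryos. The genotypes did not overlap, and the log2 fold change of 0.66 (SE 0.23) had an adjusted p of 0.196 (edgeR). Airn, the paternal antisense RNA that silences Igf2r on the same chromosome copy, had 8 and 18 counts in SO+ embryos, against 3, 1 and 4 counts in SO− embryos, too few to test. Given the depth of each library, these counts equal 0.29 and 0.67 CPM in SO+ embryos, against 0.73, 0.89 and 0.95 CPM in SO− embryos. Slc22a3, a cation transporter gene of the cluster, had 10 and 0 counts in SO+ embryos and no count in SO− embryos. The 10 counts equal 0.36 CPM, less than 3 counts do in any SO− library (0.716 CPM or more). The cluster lies on chromosome 17, 22.7 Mb from Pou5f1.

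In the Kcnq1ot1 cluster (chr7:143052739-143503150), both growth restraints had higher mean levels in SO− embryos, and one passed the test. Cdkn1c, the cell cycle inhibitor p57, was at 12.8 and 11.98 CPM in SO+ embryos and at 29.5, 32.2 and 20.5 CPM in SO− embryos. It rose with a log2 fold change of 1.118 (SE 0.256, adjusted p = 0.0378, edgeR), a call that was lost without SO+ embryo 1 (adjusted p = 0.0841) or SO+ embryo 2 (adjusted p = 0.0632). Phlda2, which restrains placental growth, was at 9.62 and 12.6 CPM in SO+ embryos and at 35.6, 52.8 and 8.35 CPM in SO− embryos. Embryos 1 and 2 lay above the SO+ embryos and embryo 3 below them, and the log2 fold change of 1.43 (SE 0.50) had an adjusted p of 0.200 (edgeR). Kcnq1ot1, the paternal noncoding RNA that silences the cluster, was at 34.1 and 48.7 CPM in SO+ embryos and at 56.1, 69.8 and 62.8 CPM in SO− embryos. Its log2 fold change was 0.59 (SE 0.19, adjusted p = 0.151, edgeR).

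Cd81, a tetraspanin, had a log2 fold change of -0.10 (SE 0.12), Tssc4 of 0.12 (SE 0.17) and the transporter Slc22a18 of 0.37 (SE 0.52), with adjusted p-values between 0.819 and 0.852 by edgeR. Kcnq1, a potassium channel gene, had no count in any embryo, although its exons overlap in part those of Kcnq1ot1. Counting was not stated to use strand, and reads of overlapping or antisense genes cannot then be told apart. This also bears on Cdkn1c, where the antisense gene model Gm44732 covers 30.7% of the exonic bases. Likewise, exons of Gnas cover 31.4% of those of its antisense RNA Nespas.

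Paternally expressed Peg3, a zinc finger protein gene at chr7:6703892-6730431, was at 243 and 296 CPM in SO+ embryos and at 553, 796 and 384 CPM in SO− embryos. The genotypes did not overlap, and Peg3 rose with a log2 fold change of 1.09 (SE 0.22, adjusted p = 0.0205, edgeR), but with DESeq2 its adjusted p was 0.117 and with a robust estimate of the spread 0.342. Its neighbour Usp29, a deubiquitinase gene read in the opposite direction from the same region, had a log2 fold change of 1.01 with a wide error (SE 0.56, adjusted p = 0.476, edgeR). The maternal gene of the cluster, Zim1, had 1 and 47 counts in SO+ embryos, against 6, 1 and 5 counts in SO− embryos and was not tested. In CPM, Zim1 was at 0.04 and 1.74 in SO+ embryos, against 1.45, 0.89 and 1.19 in SO− embryos.

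Mest, an enzyme-like protein gene of mesoderm expressed from the paternal copy (chr6:30723547-30748465), was at 262 and 432 CPM in SO+ embryos and at 574, 824 and 592 CPM in SO− embryos. It rose with a log2 fold change of 0.93 (SE 0.20, adjusted p = 0.0256, edgeR), with an adjusted p of 0.132 by DESeq2 and 0.288 with a robust estimate of the spread. Without SO+ embryo 1 the log2 fold change of Mest was 0.60 (adjusted p = 0.0415, edgeR). Copg2, a coat protein gene that runs towards Mest and is maternally expressed, was at 89.4 and 69.5 CPM in SO+ embryos and at 81.5, 85.0 and 68.5 CPM in SO− embryos (log2 fold change -0.03, SE 0.16). The exons of the 2 genes share 912 bases, 23.1% of those of Mest, and the sign for Copg2 turned when SO+ embryo 1 or SO− embryo 3 was left out.

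Asb4 had the largest log2 fold change of the 38 genes. This maternally expressed gene, which encodes an ankyrin repeat protein with a SOCS box, lies at chr6:5383386-5433022 and was at 4.54 and 6.95 CPM in SO+ embryos and at 18.1, 20.6 and 21.7 CPM in SO− embryos. The 3 SO− embryos lay close together, and the log2 fold change was 1.81 (SE 0.32, adjusted p = 0.00925, edgeR). Its neighbours in the cluster of 4 did not pass the test. Peg10, a gene derived from a retrotransposon and needed for the placenta, was at 17.4 and 28.6 CPM in SO+ embryos and at 38.5, 41.2 and 24.3 CPM in SO− embryos (log2 fold change 0.56, SE 0.27, adjusted p = 0.401, edgeR). Sgce, which encodes a sarcoglycan, had a log2 fold change of 0.14 (SE 0.29), and Ppp1r9a, which encodes neurabin, had one of -0.03 (SE 0.24).

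The falls lay in the Snrpn cluster, the mouse counterpart of the Prader-Willi region, which is expressed from the paternal copy. Snrpn, a spliceosome protein gene, was at 433 and 461 CPM in SO+ embryos and at 243, 233 and 340 CPM in SO− embryos. It fell by 0.70 on the log2 scale (SE 0.15, adjusted p = 0.0246, edgeR), with every SO− embryo below both SO+ embryos. Magel2, of the MAGE family of ubiquitin ligase regulators, was at 31.4 and 28.7 CPM in SO+ embryos and at 5.08, 2.68 and 16.0 CPM in SO− embryos, the second of which rests on 3 counts. It fell by 1.72 (SE 0.41, adjusted p = 0.0495, edgeR), just past the threshold, and its adjusted p was 0.0506 with RLE scaling, 0.0524 with library totals only, 0.0518 with a minimum of 10 counts in 2 embryos, 0.116 with a robust spread, 0.151 with limma-voom and 0.00671 with DESeq2. Without SO− embryo 3 the log2 fold change of Magel2 was -2.77. Magel2 made up 6.76% and 5.86% of the counts of both genes in SO+ embryos, against 2.05%, 1.14% and 4.49% in SO− embryos, with Wilson 95% intervals of 1.34 to 3.11%, 0.39 to 3.30% and 3.55 to 5.67% in SO− embryos, which cover counting error only.

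Ndn, a relative of Magel2 in the same cluster, was at 26.4 and 33.7 CPM in SO+ embryos and at 27.1, 29.5 and 21.5 CPM in SO− embryos (log2 fold change -0.23, SE 0.22, adjusted p = 0.740, edgeR). Exons of Snrpn overlap those of Snurf, which had no count in any embryo, and of Gm38393, which covers 27.3% of them. Snurf shares 216 exonic bases with Snrpn on the same strand. How reads there were assigned is not given, so the missing counts do not show that Snurf was silent. Peg12, an intronless gene of the same region that belongs to a list of 35 further imprinted genes, rose from 1.05 and 0.48 CPM in SO+ embryos to 18.1, 7.16 and 3.58 CPM in SO− embryos (log2 fold change 3.68, SE 0.74, adjusted p = 0.0194, edgeR). It was the one gene called among the 21 of that list that were tested, where 2.35% of all genes tested were called, 1.42% as higher. The median log2 fold change of the list was 0.11. The most abundant genes of the list by CPM, Nap1l4 and Ube3a, had log2 fold changes of 0.06 and -0.12.

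In the Dlk1-Meg3 cluster on chromosome 12, the maternal noncoding RNA Meg3 was at 131 and 118 CPM in SO+ embryos and at 81.5, 106 and 96.4 CPM in SO− embryos (log2 fold change -0.41, SE 0.14, adjusted p = 0.175, edgeR). Rian, which hosts small nucleolar RNAs, was at 86.8 and 72.9 CPM in SO+ embryos and at 55.4, 53.7 and 44.9 CPM in SO− embryos (log2 fold change -0.64, SE 0.16). Its adjusted p was 0.0557 by edgeR and 0.0382 by DESeq2, and in both genes the genotypes did not overlap. Mirg, a host of microRNAs further along, had a log2 fold change of 0.18 (SE 0.35). Paternally expressed Dlk1, a membrane protein related to Notch ligands, was at 2.51 and 4.88 CPM in SO+ embryos and at 7.01, 6.26 and 4.29 CPM in SO− embryos (log2 fold change 0.65, SE 0.51, adjusted p = 0.657, edgeR).

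**Figure D2:**
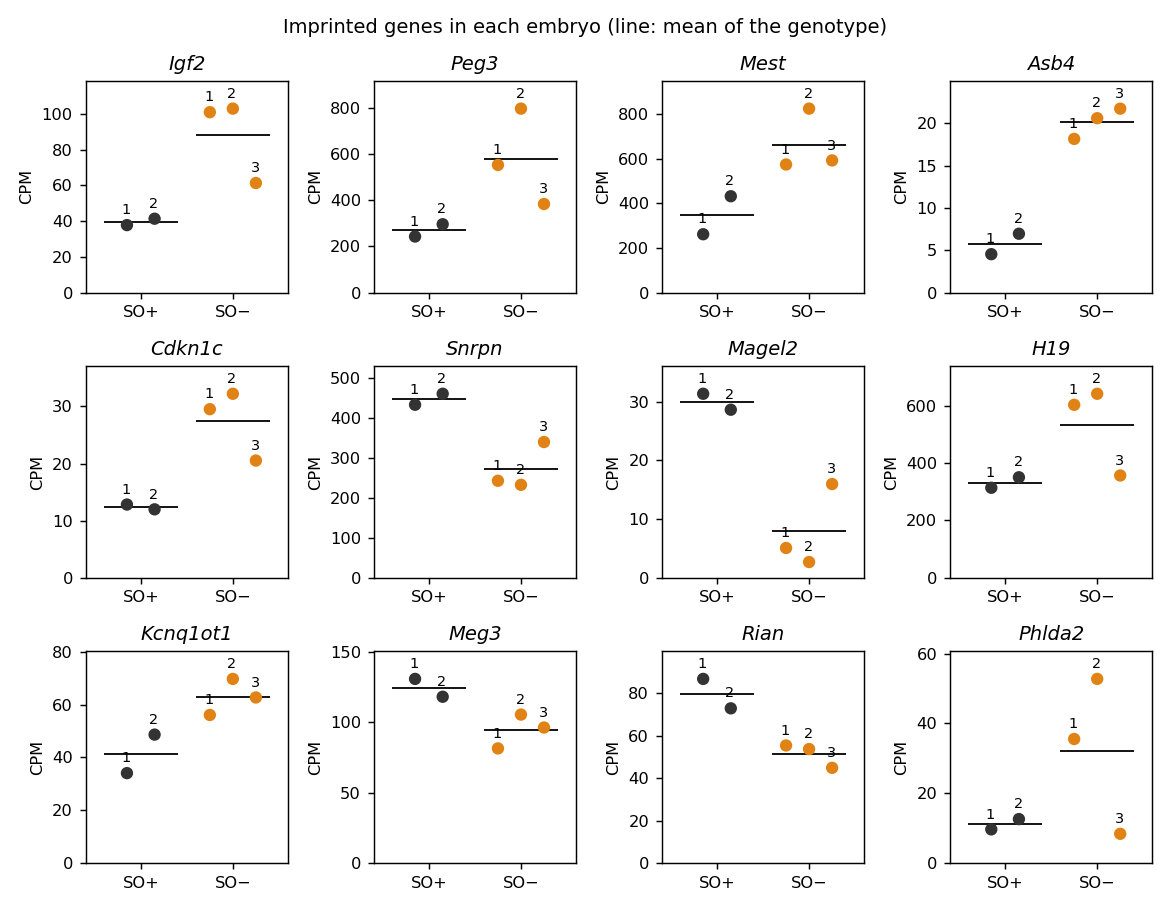
CPM (y axis, from 0) of 12 imprinted genes in each embryo, numbered by replicate, with a line at the mean of each genotype. SO− embryo 3 lies nearest to the SO+ embryos for Igf2 (61.3 CPM), Peg3, Cdkn1c, Snrpn, Magel2 and H19, but is the highest for Asb4 (21.7 CPM) and the lowest for Rian (44.9 CPM).

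The imprinted genes at the remaining loci had adjusted p-values of at least 0.134 by edgeR. Grb10, an adaptor that dampens insulin and growth factor receptor signalling, was at 246 and 301 CPM in SO+ embryos and at 336, 413 and 343 CPM in SO− embryos. The genotypes did not overlap, and the log2 fold change was 0.41 (SE 0.13, adjusted p = 0.134, edgeR). Blcap was at 26.7 and 22.4 CPM in SO+ embryos and at 29.0, 27.7 and 28.6 CPM in SO− embryos, and Nnat, the paternal gene within its intron that encodes neuronatin, had a log2 fold change of 0.21 (SE 0.22). H13, a signal peptide peptidase gene, was at 125 and 127 CPM in SO+ embryos and at 142, 149 and 136 CPM in SO− embryos (log2 fold change 0.18, SE 0.12), a small but non-overlapping difference with an adjusted p of 0.574 (edgeR). Mcts2, a retrogene inside H13 whose reads may be divided with its parent gene, was at 39.5 and 39.9 CPM in SO+ embryos and at 38.5, 32.2 and 35.6 CPM in SO− embryos.

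Inpp5f, a phosphoinositide phosphatase gene, was at 45.03 and 50.3 CPM in SO+ embryos and at 56.4, 55.5 and 51.8 CPM in SO− embryos (log2 fold change 0.20, SE 0.16). Peg13, a noncoding RNA gene within Trappc9, had a log2 fold change of 1.18 with a wide error (SE 0.49, adjusted p = 0.3, edgeR), and its host Trappc9, a vesicle tethering gene, had one of 0.48 (SE 0.24). Gnas, which encodes a G protein subunit, was among the most even, at 350 and 286 CPM in SO+ embryos, against 333, 304 and 335 CPM in SO− embryos (log2 fold change 0.04, SE 0.12), and its antisense RNA Nespas had a log2 fold change of -0.36 (SE 0.56). The log2 fold changes of Zdbf2 and Impact were 0.10 and 0.07, and those of Commd1 and of Zrsr1, a splicing factor gene in its intron, were -0.08 and -0.39. Too few counts for a test were found for Plagl1 (61 and 1 in SO+ embryos, 5, 4 and 8 in SO− embryos), Nap1l5 (16 and 12, then 1, 0 and 0) and Rasgrf1 (1 and 9, then none). In CPM, Plagl1 was at 2.2 and 0.04 in SO+ embryos, against 1.2, 3.6 and 1.9 in SO− embryos. In SO+ embryos Nap1l5 (0.58 and 0.44 CPM) and Rasgrf1 (0.04 and 0.33 CPM) lay below the level of 3 counts in any SO− library (0.716 CPM or more). Their low counts in SO− embryos thus do not show a fall. Plagl1 and Zim1 differed more between the SO+ embryos than between the genotypes.

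To compare levels between genes, counts were divided by exon length as well as library size (CPM per kb of exon). In SO+ embryos the mean level was highest for Snrpn (207), H19 (135), Mest (87.9), Cd81 (51.3) and Mcts2 (43.5). In SO− embryos the order of the means was H19 (217), Mest (168), Snrpn (126), Cd81 (47.4) and Peg3 (43.4), but in SO− embryo 3 Snrpn (157) lay above Mest (150.1) and H19 (145). Among all genes tested, Snrpn stood at the 97.9th percentile and H19 at the 96.5th percentile in SO+ embryos, whereas Igf2, at 6.91, stood at the 53.4th percentile. At the low end were Usp29 (0.17 in SO+ embryos) and Kcnq1ot1 (0.44), whose annotated exons are very long. Over all 45 genes the summed CPM was 3095 and 3352 in SO+ embryos, against 4004, 4623 and 3582 in SO− embryos.

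**Figure D3:**
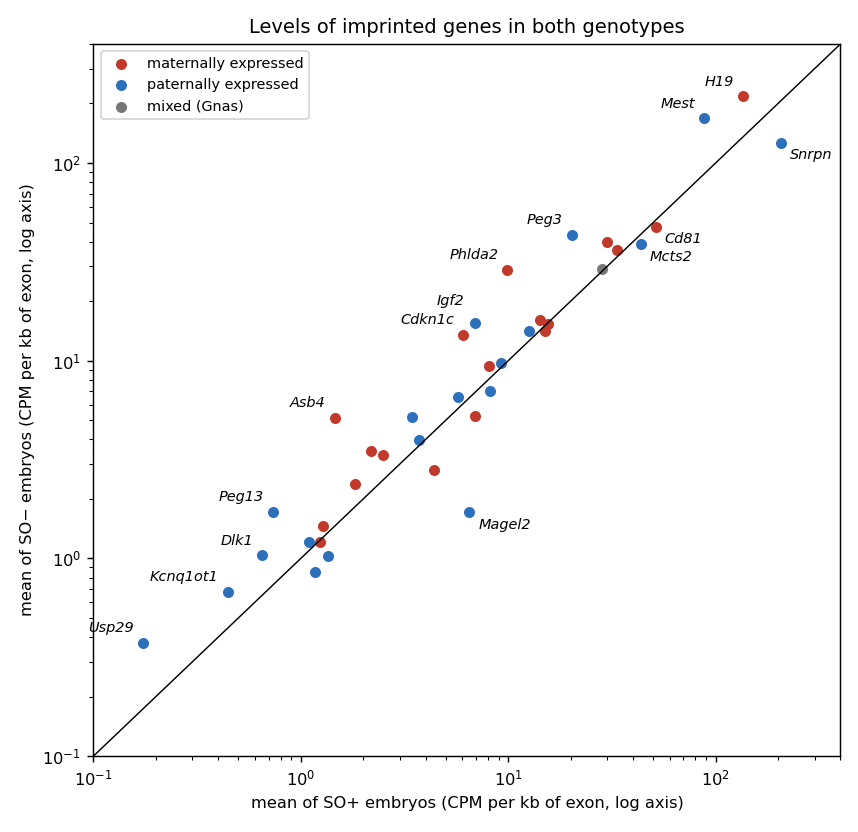
Mean level of the 38 tested imprinted genes in SO+ (x axis) and SO− embryos (y axis), in CPM per kb of exon on log axes, with the diagonal marking equal levels. H19 (135 and 217) and Mest (87.9 and 168) lie above the diagonal at the high end, Snrpn (207 and 126) and Magel2 lie below it, and Asb4 is farthest above it.

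SO− embryos were not alike. Relative to the SO+ mean, Igf2 stood at 2.55, 2.60 and 1.55 in SO− embryos 1, 2 and 3, and Cdkn1c at 2.38, 2.60 and 1.66. Snrpn stood at 0.54, 0.52 and 0.76 of the SO+ mean, and Magel2 at 0.17, 0.09 and 0.53. SO− embryo 3 also had the highest remaining Pou5f1 of the SO− embryos and a summed level of epiblast markers (3580 CPM) nearest to that of SO+ embryos. Its VE marker sum (2960 CPM) was below both SO+ embryos, while embryos 1 and 2 were above them. Asb4, at 3.16, 3.58 and 3.78 times the SO+ mean, was not nearest to the SO+ mean in embryo 3, nor were Mest, at 1.66, 2.38 and 1.71, and Rian, at 0.69, 0.67 and 0.56.

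Summed marker levels of other tissues also varied among SO− embryos, and those of VE and mesoderm overlapped between genotypes. Of the 12 VE markers, 11 had a log2 fold change above 0, with a median of 0.39 and a lowest adjusted p of 0.113 (edgeR). The summed level of 10 ExE markers was 17.2 and 24.6 CPM in SO+ embryos, against 44.0, 63.5 and 29.8 CPM in SO− embryos. Without Hand1 and Bmp4, which are also mesoderm genes, it was 11.7 and 18.0 CPM against 19.8, 23.3 and 12.6 CPM. The sum of 10 markers of nascent and extraembryonic mesoderm was 99.0 and 219 CPM against 272, 261 and 134 CPM, with Hand1 and Pmp22 called higher by edgeR. The list was mixed: 6 of the 8 tested had a log2 fold change above 0, against -0.61 for Mesp1 and -0.39 for Mesp2. Tbx6 and Ahnak, too low to test, had lower mean levels in SO− embryos. Of the 8 epiblast markers, 4 fell past the test (Pou5f1, Utf1, Dnmt3b and Slc7a3). The others did not pass it, with log2 fold changes of -0.23 for Otx2, -0.40 for Tdgf1, 0.38 for Fgf5 and 0.56 for Sox2. The epiblast sum includes Dnmt3b, its most abundant gene, and the deleted gene Pou5f1. The part of tissue make-up in the values of the imprinted genes was not tested.

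**Figure D4:**
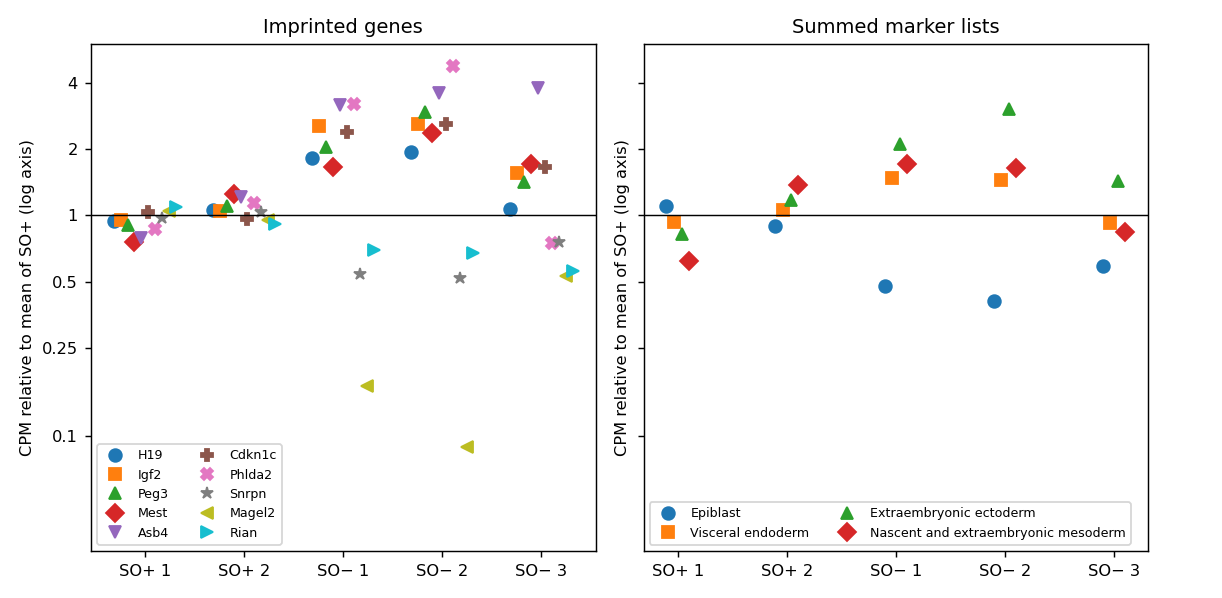
Level in each embryo relative to the SO+ mean (y axis, log scale) for 10 imprinted genes (left) and for the summed CPM of 4 marker lists (right), with 1 symbol per gene or list. In SO− embryos 1, 2 and 3 epiblast markers stood at 0.48, 0.41 and 0.59 and VE markers at 1.48, 1.45 and 0.92, and most of the genes in the left panel lie closest to 1 in embryo 3.

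Factors that write, keep or erase imprints were looked at in a list of 29 genes, of which 25 were tested and 2 fell, where 0.928% of all genes tested were called lower, with a median log2 fold change of -0.06. The de novo DNA methyltransferase genes Dnmt3b, at 3983 and 3263 CPM in SO+ embryos, against 1708, 1447 and 2286 CPM in SO− embryos, and Dnmt3a, at 477 and 380 CPM against 232, 204 and 329 CPM, were the genes of the list that fell. Their log2 fold changes were -0.99 (adjusted p = 0.00392) and -0.73 (adjusted p = 0.0424, edgeR), and Dnmt3b is also one of the epiblast markers. Tet1, which oxidizes methylated cytosine, had a log2 fold change of -0.71 with an adjusted p of 0.0512 (edgeR). The factors that hold imprints after fertilization had log2 fold changes nearer 0, with -0.12 for Dnmt1, -0.20 for Trim28 (adjusted p = 0.282) and -0.15 for Zfp57 (adjusted p = 0.915, edgeR). Methylation itself was not measured in these embryos.

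Promoter sequence was compared for the 36 imprinted genes with an entry in the RefSeq table (GRCm38.p6), in windows from 250 bases before to 50 after each start. The hexamer TGCCGC, which ZFP57 binds when its CpG is methylated, was searched on both strands. It occurred in 13 of the 36 genes (36.1%) and in 13.1% of 27025 genes, and in 8 of 18 paternally and 5 of 17 maternally expressed genes. The motif holds a CpG, and the median window of the imprinted genes had 15 CpG against 7 for all windows. The octamer ATGCAAAT, bound by Oct4 and its relatives, occurred in 1 of 53 imprinted gene windows (1.89%), that of Asb4, and in 1.74% of all windows. Windows of 4 genes past the test are shown because they hold one of these motifs, given in capitals on the strand of the gene and so as GCGGCA or ATTTGCAT where the match is on the other strand. They are Igf2 (chr7:142661222-142661521, minus strand), Mest (chr6:30737800-30738099, plus strand), Snrpn (chr7:60005150-60005449, minus strand) and Asb4 (chr6:5383136-5383435, plus strand).
Igf2: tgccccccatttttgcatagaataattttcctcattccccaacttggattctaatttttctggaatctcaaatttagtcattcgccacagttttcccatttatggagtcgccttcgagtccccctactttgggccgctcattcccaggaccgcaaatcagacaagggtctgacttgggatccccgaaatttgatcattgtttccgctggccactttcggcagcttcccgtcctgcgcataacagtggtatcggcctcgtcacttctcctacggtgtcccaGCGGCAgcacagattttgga
Mest: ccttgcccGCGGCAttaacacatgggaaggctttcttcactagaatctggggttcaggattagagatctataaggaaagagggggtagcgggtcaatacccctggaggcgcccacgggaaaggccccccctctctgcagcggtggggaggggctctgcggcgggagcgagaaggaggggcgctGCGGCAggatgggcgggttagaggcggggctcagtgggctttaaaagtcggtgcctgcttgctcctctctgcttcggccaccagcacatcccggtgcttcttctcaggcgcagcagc
Snrpn: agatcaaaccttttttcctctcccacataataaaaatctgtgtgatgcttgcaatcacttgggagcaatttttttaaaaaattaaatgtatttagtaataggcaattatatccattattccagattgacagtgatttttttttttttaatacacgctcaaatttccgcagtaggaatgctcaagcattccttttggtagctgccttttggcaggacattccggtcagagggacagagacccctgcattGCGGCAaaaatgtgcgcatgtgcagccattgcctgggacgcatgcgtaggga
Asb4: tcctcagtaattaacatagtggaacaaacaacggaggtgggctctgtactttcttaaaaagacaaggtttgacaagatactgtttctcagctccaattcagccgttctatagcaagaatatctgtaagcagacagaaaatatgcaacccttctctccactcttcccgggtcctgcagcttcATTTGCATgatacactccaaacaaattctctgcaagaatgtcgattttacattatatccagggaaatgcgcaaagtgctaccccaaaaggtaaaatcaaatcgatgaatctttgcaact
Igf2 and Mest rose and Snrpn fell with the hexamer in the window shown, 2 times in that of Mest, so the motif was found with both directions. Each of the 4 genes also has a window at another start that held neither motif, and use of the starts was not measured. The windows of Peg3 and Magel2 held neither motif, and Cdkn1c and H19 had no entry in the table searched. A match is a string of letters, and binding was not measured.

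The calls rest on few embryos. Leaving out either SO+ embryo took away the call of Cdkn1c. Left out in turn, SO− embryo 1 or 2 took away the calls of all 7 genes by edgeR, which then called 46 and 35 genes over all genes. Of the 41 imprinted genes then tested, 12 and 13 had an unadjusted p under 0.05, and the share of all genes at that level was not counted. Without embryo 1, DESeq2 called 3 imprinted genes (Igf2, Asb4 and Snrpn) among 168 genes called over all genes. Without embryo 2 it called 6 (Igf2, Peg3, Asb4, Mest, Snrpn and Magel2) among 283. The log2 fold changes of the 7 genes kept their sign in all 15 alternatives, from 0.99 to 1.37 for Igf2, from 0.80 to 1.30 for Peg3, from 0.60 to 1.34 for Mest, from 1.53 to 2.15 for Asb4, from 1.02 to 1.30 for Cdkn1c, from -0.91 to -0.61 for Snrpn and from -2.82 to -1.39 for Magel2.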

How the data were processed

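Libraries of 2 SO+ and 3 SO− embryos were analysed, each holding the epiblast and VE of 1 embryo. With STAR and HTSeq, per the labels, the authors aligned and counted reads on GRCm38, and deposited unnormalized counts for 49671 genes. The strand setting of the counting is not given in the sources used here. SmartSeq2 attaches no molecular identifiers, so intervals and floors cover counting error only. Total counts per embryo ranged from 1117566 to 27538119.

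Counts were analysed in R 4.3.3 with edgeR 4.0.16 by its quasi-likelihood test on genotype alone over all 5 embryos, after filterByExpr and with TMM factors, and Benjamini-Hochberg adjustment over the 12067 genes tested, at a threshold of 0.05. The size of the log2 fold change over the root of its F statistic gave the standard error. CPM is the count divided by the total count of the library, and levels between genes were divided by the exon length of GENCODE M21 (99.5% of gene IDs matched). Alternatives were DESeq2 1.42.0, limma-voom (limma 3.58.1), other scaling, other filters on low counts, a robust spread, binomial thinning of SO+ counts (median of 10 draws), the replicate number as a block, and each embryo left out.

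The imprinted genes, the other lists and the tests were chosen with earlier results of these data known. All 45 imprinted genes are named. Full values per embryo are given for called genes, for genes whose genotypes did not overlap and whose mean log2 CPM reached 3, and for noncoding RNAs and their reciprocal partners. Of the further lists, called genes and the 2 most abundant are named, and others such as Igf1, Igf1r, Igf2bp3, Tet1, Dnmt1 and Zfp57 were chosen after their values were seen. Markers of parietal endoderm summed to between 354 and 444 CPM in the 5 embryos. Replicate numbers mark different animals in the 2 genotypes.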

Additional observations from a re-analysis of the deposited data

How the results depend on the processing

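Of 570 recalculated fold changes of single imprinted genes, 514 kept both their direction and their side of the threshold, 30 lost and 16 gained a call, and 10 changed sign. The number of imprinted genes called was between 5 and 8 under other scaling, other filters, a robust spread, thinned SO+ counts and DESeq2, while limma-voom called 1 (Asb4). Those settings other than limma-voom called 1.44% to 3.26% of all genes tested. Over all genes limma-voom called 91, and it called 1 imprint regulator and 0 further imprinted genes, where edgeR called 2 and 1. A robust spread left 1 imprint regulator. With an embryo left out, 35 to 573 genes were called over all genes, 0 to 10 imprinted genes, 0 to 3 imprint regulators, 0 to 2 further imprinted genes and 1 to 4 genes of the insulin-like growth factor list, with the lowest values when SO− embryo 1 or 2 was missing. The median log2 fold change then ran from 0.20 to 0.38 for maternally and from 0.15 to 0.29 for paternally expressed genes. The sign turned for Copg2 (-0.20 to 0.16), Gnas (-0.10 to 0.18), Impact (-0.015 to 0.21), Mirg (-0.017 to 0.38), Nespas (-0.71 to 0.10), Ppp1r9a (-0.11 to 0.046), Tssc4 (-0.034 to 0.24) and Zrsr1 (-1.47 to 0.15), none of them called, and the cause was not tested. Same-numbered embryos share only a number: their deviations from the genotype means correlated at 0.008 and 0.115 over genes. The replicate block drops SO− embryo 3 in effect, since no SO+ embryo shares its number, and it called 929 genes, 13 imprinted genes, 2 further imprinted genes and 5 genes of the growth factor list, with a median of 0.33 for maternally expressed genes and 0.057 for Copg2. The list of growth factor genes was put through the alternatives after seeing the data. Counting error was largest in SO− embryo 2, where 3 counts equal 2.68 CPM.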
